A study of Mus musculus with 6 samples.

Results

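The 27 genes described here make cholesterol or adjust how much of it a cell holds. They were chosen by gene name from a list for the pathway, and they are 27 of the 34745 genes in the deposited count files. The list holds 18 enzymes of sterol synthesis, 5 genes that control the transcription factor SREBP2 or answer to it, and 4 genes of the opposite arm, in which liver X receptors (LXRs) drive cholesterol out of the cell. All 27 were found and all 27 were among the 15400 genes with enough counts to test. RNA-seq was done on inguinal white adipose tissue (IngWAT), the subcutaneous fat pad of the groin, from 3 SAKI and 3 WT mice. SAKI mice carried the LSL-Slc35d3 knock-in transgene together with Cre driven by the adiponectin promoter, which is active in adipocytes, so the fat cells overexpressed Slc35d3 while the other cells of the pad were not targeted. WT mice carried the LSL-Slc35d3 allele without the Cre, so both groups share that allele and differ in Cre as well as in Slc35d3. All 6 were males on a C57BL/6 background, put at the age of 6 weeks on normal chow (10 kcal% fat), kept on it for 10 weeks, labelled as perfused with PBS, and 16 weeks old at the end. The tissue was sequenced whole, so a gene's value is an average over adipocytes, macrophages, fibroblasts and vessels.

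Cholesterol is built from acetyl-CoA through mevalonate, isoprenoid diphosphates, squalene and lanosterol. When membranes of the endoplasmic reticulum are rich in sterols, INSIG proteins hold the escort protein SCAP and its cargo SREBP2 there, and when sterols run low SREBP2 moves to the Golgi, is cut, and turns on nearly every enzyme of the pathway together. Oxysterols, made when cholesterol is plentiful, activate the LXRs, which turn on the exporters ABCA1 and ABCG1. Adipocytes store a large part of the body's free cholesterol in and around the lipid droplet, and macrophages of the fat pad handle it too.

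The libraries held 15354161 to 18787036 counts each. Slc35d3, the knock-in gene, checked the labels. It stood at 73.3, 82.1 and 74.4 CPM (counts scaled by library size with the TMM method) in WT mice and at 745, 793 and 770 CPM in SAKI mice, a fold of 10.0 (log2 fold change 3.33, SE 0.12, edgeR adjusted p = 0.000244). One control stood apart. On the first principal component of all genes tested, which held 46.8% of the variance, WT 1 and WT 3 lay at -43.2 and -61.9, whereas WT 2 lay at 27.9, beside the SAKI mice at 20.9 to 30.3. On the second, with 20.4% of the variance, WT 2 lay apart from them, at 43.3 against -23.1 to -7.9. Mitochondrially encoded genes took 13.8% of the counts in WT 2 and 13.1% to 15.9% in SAKI mice, against 7.31% and 8.79% in WT 1 and WT 3. The counts and medians of the 3 gene groups are therefore given with and without WT 2. WT 2 was picked out by these same expression values, and leaving out the control nearest to the SAKI mice enlarges the differences. Calls and p-values without WT 2 are therefore a description and not a valid test of genotype. All 15 mature adipocyte markers were detected, with a mean log2 CPM of 9.41 to 10.0 in the 6 libraries.

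None of the 27 sterol genes passed an adjusted p of 0.05 between SAKI and WT mice in edgeR's quasi-likelihood test over all genes. The same test called 2 genes lower and 3 higher in SAKI mice, which is 0.013% and 0.0195% of the genes tested. The unadjusted p was under 0.05 for 6 of the 27 members, all with a lower value in SAKI mice, beside 9.99% lower and 8.36% higher over all genes. The estimates were mostly below 0. The log2 fold change of SAKI over WT was negative for 24 of 27 members with a median of -0.40, beside 50.4% of all genes and a median of -0.00. In whole tissue, fewer cells that make sterols and less of these RNAs in each cell cannot be told apart.

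Most of the 18 synthesis enzymes had lower estimates in SAKI mice. The log2 fold change was below 0 for 16 of the 18, with a median of -0.50, and 6 of them (Acat2, Hmgcs1, Pmvk, Sqle, Cyp51 and Hsd17b7) made up all the members with an unadjusted p under 0.05. SAKI mice were close to each other and WT mice were not. The highest mouse over the lowest was a larger ratio in WT than in SAKI mice in 17 of the 18 enzymes (94.4%). Over all genes tested this share was 77.9%, so a wider WT spread was common in these libraries. The mean log2 CPM over the 18 genes, with 0.5 CPM added, was 4.30, 4.27 and 4.35 in SAKI mice and 4.61, 4.34 and 5.32 in WT mice. WT 3 was the highest of the 6 mice in 15 of the 18 enzymes (83.3%, against 27.1% of all genes). WT 1 came second in 10 of the 18 (55.6%, against 22.1% of all genes). WT 2 was near the SAKI level. Its CPM divided by the SAKI mean had a median of 1.03 over the 18 genes and lay between 0.8 and 1.25 in 14 of them. These 2 figures were not computed over all genes, so they do not set the enzymes apart.

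**Figure D1:**
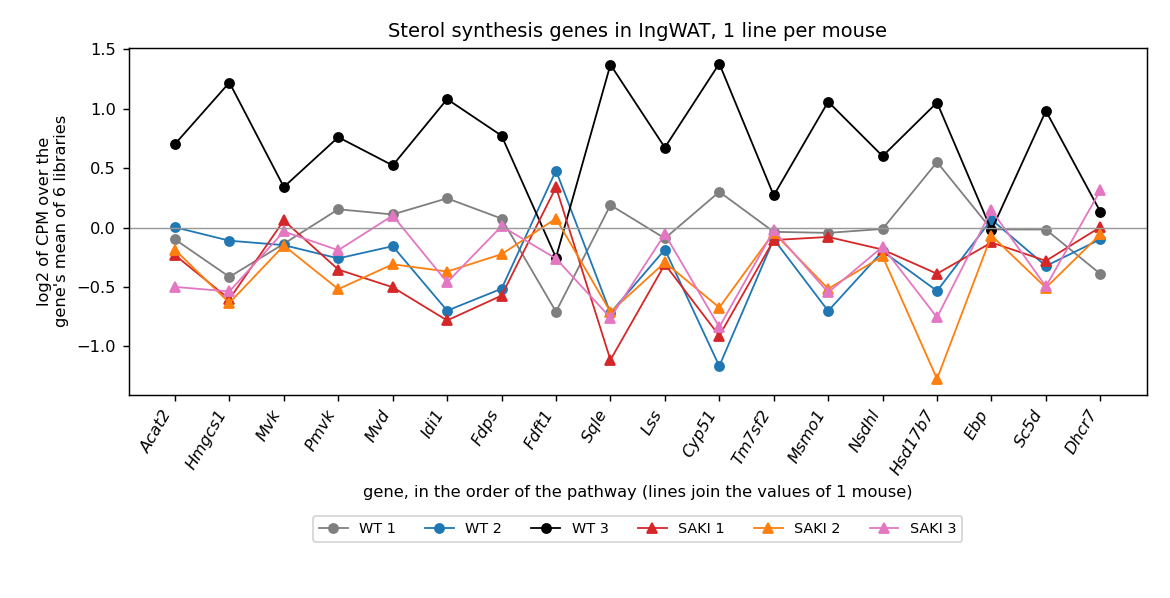
Each point is the log2 of a gene's CPM in 1 mouse over that gene's mean in all 6 mice, for the 18 synthesis enzymes in pathway order. Circles are WT mice, triangles SAKI mice and lines join the values of 1 mouse. The black line of WT 3 lies on top in 15 of the 18 genes, and WT 2 runs among the SAKI mice in most.

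The pathway opens with Acat2, which joins acetyl-CoA units, and Hmgcs1, the cytosolic HMG-CoA synthase. Hmgcs1 was measured at 69.4, 85.7 and 216 CPM in WT mice and at 60.9, 59.6 and 63.7 CPM in SAKI mice. Its means were 124 ± 80.3 and 61.4 ± 2.10 CPM (SD, n = 3), with a log2 fold change of -1.01 (SE 0.41, edgeR adjusted p = 0.260). The groups did not overlap, but the WT mean rested on WT 3: without that mouse the log2 fold change was -0.34. Acat2 also did not overlap, with 54.3, 58.3 and 94.7 CPM in WT mice and 49.5, 51.1 and 41.1 CPM in SAKI mice (log2 fold change -0.55, edgeR adjusted p = 0.265). Some reads of Acat2 may be shared with its near copy Acat3, which stood at 4.07 to 7.33 CPM. Of the 27 members, 3 did not overlap between the groups, all of them lower in SAKI mice, whereas 12.4% of all genes were lower and 13.0% higher without overlap. An exact permutation test of 3 against 3 mice cannot give a two-sided p below 0.1.

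The mevalonate steps follow. Pmvk, the phosphomevalonate kinase, gave 43.2, 32.4 and 65.8 CPM in WT mice and 30.4, 27.1 and 34.02 CPM in SAKI mice (log2 fold change -0.63, SE 0.25, edgeR adjusted p = 0.261). Idi1, which interconverts the isoprenoid building blocks, gave 41.4, 21.5 and 73.8 CPM against 20.3, 26.97 and 25.3 CPM (log2 fold change -0.91, SE 0.41, edgeR adjusted p = 0.285). In both genes WT 3 was highest, WT 1 second, and WT 2 lay within the SAKI range. The kinase Mvk (-0.08), the decarboxylase Mvd (-0.40) and the farnesyl diphosphate synthase Fdps (-0.45) had log2 fold changes with edgeR adjusted p-values of 0.834, 0.433 and 0.486. Fdft1, the squalene synthase and first step given over to sterols, was 1 of the 2 enzymes, with Dhcr7, whose estimate was above 0, with 27.7, 63.1 and 38.0 CPM in WT mice and 57.2, 47.7 and 37.7 CPM in SAKI mice (log2 fold change 0.15, edgeR adjusted p = 0.817). Here WT 2 was highest and WT 1 lowest. Fdft1 lies at chr14:63145153-63177793 on the minus strand (GRCm38) by the deposited coordinates. GENCODE vM21 draws it from 63145150 to 63179578. In vM21, 774 bases of its exons, 18.3% of them, overlap Ctsb on the other strand. Ctsb had a mean of 27437.7 counts per library against 724.8 for Fdft1, and whether strand was used in counting is not known here, which means that reads of the pair may be mixed. Ctsb itself was highest in WT 2, at 1867 CPM, with 1569 to 1726 CPM in the other 5 mice. The part of these reads in the Fdft1 values was not tested.

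The largest estimates were in the steps around lanosterol. Sqle, the squalene epoxidase and a rate-limiting enzyme, was measured at 14.97, 7.98 and 33.98 CPM in WT mice and 6.06, 8.02 and 7.75 CPM in SAKI mice (log2 fold change -1.38, SE 0.49, edgeR adjusted p = 0.228). Cyp51, the lanosterol demethylase, was measured at 39.3, 14.2 and 83.0 CPM in WT mice and 16.9, 19.98 and 17.8 CPM in SAKI mice (log2 fold change -1.32, SE 0.55, edgeR adjusted p = 0.268). In Cyp51 the highest WT mouse was 5.85 times the lowest, whereas the SAKI mice differed by 1.18 times. Hsd17b7, a sterol ketone reductase, was measured at 16.5, 7.78 and 23.4 CPM in WT mice and 8.60, 4.66 and 6.67 CPM in SAKI mice, so that WT 2 lay inside the SAKI range (log2 fold change -1.26, SE 0.41, edgeR adjusted p = 0.211). Hsd17b7 was the 1 member that DESeq2 called, with an adjusted p of 0.0480, in a test that called 2.94% of the genes with an adjusted p lower in SAKI mice and 2.18% higher. Sc5d, a sterol desaturase, gave 63.9, 51.7 and 128 CPM in WT mice and 53.3, 45.5 and 45.9 CPM in SAKI mice (log2 fold change -0.75, edgeR adjusted p = 0.276). Msmo1, the methylsterol oxidase, gave 16.0, 10.1 and 34.3 CPM against 15.6, 11.5 and 11.3 CPM (log2 fold change -0.66, edgeR adjusted p = 0.438). WT 3 alone stood clear of the other 5 mice in both.

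The remaining late enzymes had smaller estimates. Their group means differed by less than the SD of the WT mice, as did those of Sqle, Cyp51, Sc5d and Msmo1 above, but not those of Hsd17b7. Lss, which closes squalene epoxide into lanosterol, had a log2 fold change of -0.40 and Nsdhl, which acts beside Msmo1, one of -0.37 (edgeR adjusted p = 0.406 and 0.379). Tm7sf2, a sterol reductase, had -0.11 and Ebp, the sterol isomerase, -0.02. Ebp was almost level, at 28.3, 30.0 and 28.2 CPM in WT mice and 26.2, 27.3 and 31.6 CPM in SAKI mice. Dhcr7, which makes cholesterol in the last step of its branch, had 0.20 (edgeR adjusted p = 0.580) and was highest in SAKI 3. The spread among WT mice varied from enzyme to enzyme. Mvk, Tm7sf2, Ebp and Dhcr7 had a WT range of at most 1.44 times from lowest to highest, whereas Hmgcs1, Idi1, Sqle, Cyp51, Msmo1 and Hsd17b7 had WT ranges of 3.00 to 5.85 times.

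Without WT 2, a mouse picked out by these same data, 6 sterol genes were called lower and 1 higher in SAKI mice at an adjusted p of 0.05. The same fit called 9.14% of all genes lower and 7.41% higher. The 5 synthesis enzymes among them were Pmvk, Idi1, Sqle, Cyp51 and Hsd17b7. Sqle fell by 1.75 on the log2 scale (edgeR adjusted p = 0.0241), Cyp51 by 1.74 (edgeR adjusted p = 0.0169) and Hsd17b7 by 1.58 (edgeR adjusted p = 0.0183). Idi1 fell by 1.25 (edgeR adjusted p = 0.0264) and Pmvk by 0.83 (edgeR adjusted p = 0.0376). The median of the 18 enzymes was then -0.68. The groups did not overlap in 12 of the 18 enzymes, with SAKI mice lower, and in 17 lower and 1 higher of the 27 members, against 26.3% of all genes lower and 26.4% higher. Leaving out WT 3 in place of WT 2 gave a median of -0.15 and 0 calls among the 18. That fit called 1 gene lower and 3 higher of 15641, so its 0 calls say little about the enzymes. Its log2 fold changes were -0.66 for Sqle, -0.55 for Cyp51, -0.87 for Hsd17b7, -0.38 for Idi1 and -0.31 for Pmvk. The size of the estimates thus depended on which WT mice were kept.

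**Figure D2:**
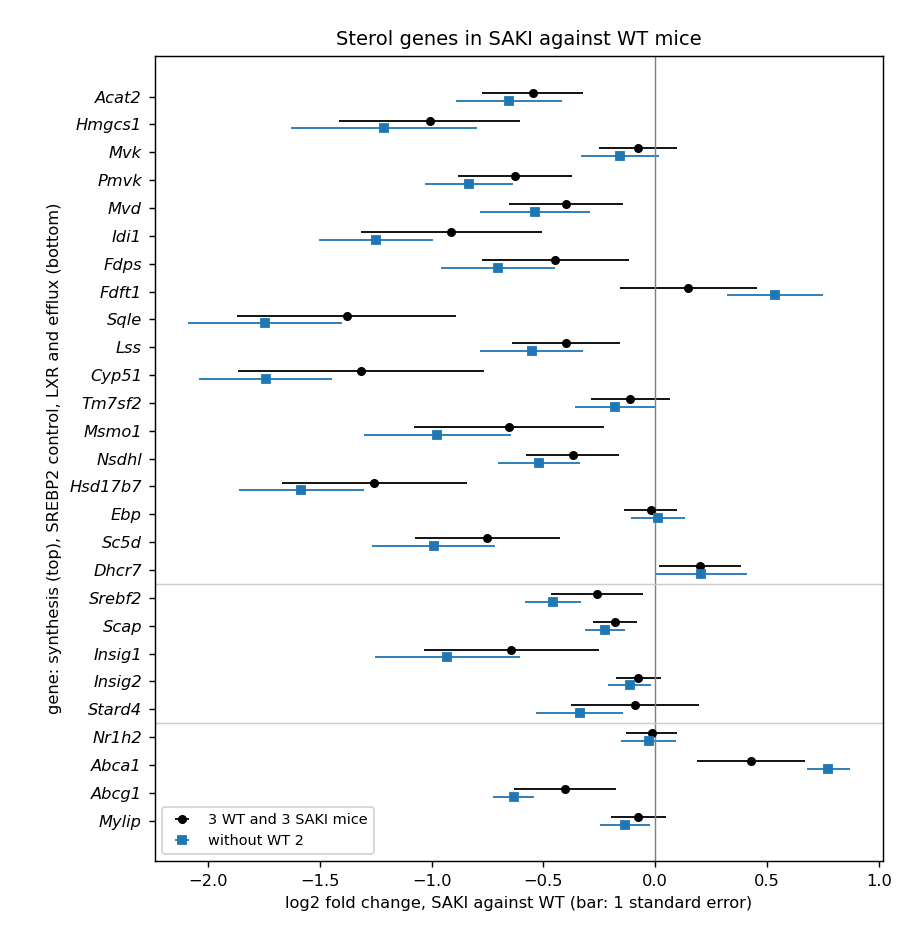
Log2 fold change of SAKI over WT for the 27 genes, with bars of 1 standard error. Black circles use all 6 mice and blue squares leave out WT 2: Sqle goes from -1.38 to -1.75, Cyp51 from -1.32 to -1.74 and Abca1 from 0.43 to 0.77, while Ebp and Nr1h2 stay near 0.

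Promoter sequence is shown for 5 of these enzymes and for Abca1 of the efflux arm. An enzyme's window was shown only if it held CCAAT, a rule not applied to Abca1, so their numbers of boxes are not a comparison. SREBP2 binds sterol regulatory elements beside the factor NF-Y, which binds the CCAAT box. In RefSeq promoters of GRCm38.p6, from 250 bases before the start to 50 after it, 22 of the 27 members were matched (Fdps, Fdft1, Sqle, Stard4 and Abcg1 were not). CCAAT, searched on both strands, was present in 14 of 15 synthesis genes (93.3%) and in 18 of 22 members (81.8%), against 41.1% of the 27025 genes of the table. It was in 3 of 4 control genes and in 1 of 3 LXR genes. The LXR gene was Mylip, with CCAAT at positions -190, -108 and -67 from the start. The exact string TCACNCCAC, 1 form of the sterol regulatory element, was present in Hmgcs1 alone of the 22, and in 1.44% of all genes. Other forms of the element were not searched, so a window without this string may still hold one. A pair of AGGTCA sites 4 bases apart, the kind LXRs bind, was in 0 of 22 members and in 0.0148% of all genes. The exact pair is so rare that its absence from 22 genes says nothing on LXR binding. A match says only that the letters are in the window. The 200 bases before the start are printed 5′ to 3′ on the gene's strand, with capitals for CCAAT on either strand (ATTGG on the other) and, in Hmgcs1, for the element too. Hmgcs1 is at chr13:119690151-119690350 (plus strand), Idi1 at chr13:8885406-8885605 (plus), Pmvk at chr3:89454341-89454540 (plus), Cyp51 at chr5:4104698-4104897 (minus), Hsd17b7 at chr1:169969206-169969405 (minus) and Abca1 at chr4:53159896-53160095 (minus).
Hmgcs1: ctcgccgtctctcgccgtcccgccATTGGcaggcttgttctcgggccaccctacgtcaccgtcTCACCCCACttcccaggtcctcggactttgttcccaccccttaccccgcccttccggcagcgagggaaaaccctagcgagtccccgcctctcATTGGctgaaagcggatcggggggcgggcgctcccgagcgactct
Idi1: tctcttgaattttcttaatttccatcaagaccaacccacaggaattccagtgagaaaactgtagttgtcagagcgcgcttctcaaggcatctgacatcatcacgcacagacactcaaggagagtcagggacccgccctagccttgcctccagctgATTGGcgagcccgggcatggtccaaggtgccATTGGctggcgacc
Pmvk: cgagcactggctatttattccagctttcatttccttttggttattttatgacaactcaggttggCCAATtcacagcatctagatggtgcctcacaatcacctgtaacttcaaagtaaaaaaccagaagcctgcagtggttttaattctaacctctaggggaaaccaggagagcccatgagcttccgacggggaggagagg
Cyp51: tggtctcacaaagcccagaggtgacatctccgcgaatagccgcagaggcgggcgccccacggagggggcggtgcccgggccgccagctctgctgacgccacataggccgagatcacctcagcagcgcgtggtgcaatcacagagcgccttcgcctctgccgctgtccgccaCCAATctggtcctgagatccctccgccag
Hsd17b7: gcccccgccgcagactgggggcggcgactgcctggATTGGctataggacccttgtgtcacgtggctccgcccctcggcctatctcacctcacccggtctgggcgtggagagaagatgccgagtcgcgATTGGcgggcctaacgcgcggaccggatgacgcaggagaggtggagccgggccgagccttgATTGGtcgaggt
Abca1: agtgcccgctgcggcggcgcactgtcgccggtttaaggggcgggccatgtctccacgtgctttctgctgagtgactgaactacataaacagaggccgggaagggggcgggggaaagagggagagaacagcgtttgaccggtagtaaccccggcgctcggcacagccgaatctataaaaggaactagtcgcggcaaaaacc

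Hsd17b7 held 3 CCAAT boxes within these 200 bases and Idi1 and Hmgcs1 held 2 each. Pmvk and Cyp51 held 1 and Abca1 held 0. Whether the number of boxes goes with the log2 fold change was not tested.

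The 5 SREBP2 control genes had estimates below 0 in every case, with a median log2 fold change of -0.18 and 0 calls. Insig1, the sterol-sensing anchor of SCAP that SREBP2 itself turns on, was measured at 123, 94.1 and 287 CPM in WT mice and 113, 97.1 and 112 CPM in SAKI mice. Its means were 168 ± 104 and 107 ± 9.03 CPM (SD, n = 3), with a log2 fold change of -0.64 (SE 0.39, edgeR adjusted p = 0.408). As in the enzymes, WT 3 stood above the other 5 mice, and without it the log2 fold change was -0.01. Insig2, the second anchor, did not share that pattern, at 50.4, 45.1 and 48.4 CPM in WT mice and 45.6, 42.7 and 48.3 CPM in SAKI mice (log2 fold change -0.08, edgeR adjusted p = 0.709). The ratio of Insig1 to Insig2 CPM, not corrected for gene length, was 5.93 in WT 3 and 2.08 to 2.49 in the other 5 mice. Srebf2, the gene of SREBP2, was at 89.6, 62.2 and 114 CPM in WT mice and 74.4, 71.0 and 76.1 CPM in SAKI mice (log2 fold change -0.26, edgeR adjusted p = 0.522). WT 2 was its lowest library and WT 3 its highest. Scap was lower in every SAKI mouse than in any WT mouse, by a small margin, with 76.2, 68.0 and 73.7 CPM against 65.0, 60.7 and 66.6 CPM (log2 fold change -0.18, SE 0.10, edgeR adjusted p = 0.358). Stard4, a carrier that moves cholesterol between membranes, stood at 19.02, 12.6 and 29.4 CPM in WT mice and 20.01, 17.98 and 19.4 CPM in SAKI mice (log2 fold change -0.09), the SAKI mice lying inside the WT range. The median of the 5 was -0.34 without WT 2 and -0.04 without WT 3, with 0 calls in both.

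**Figure D3:**
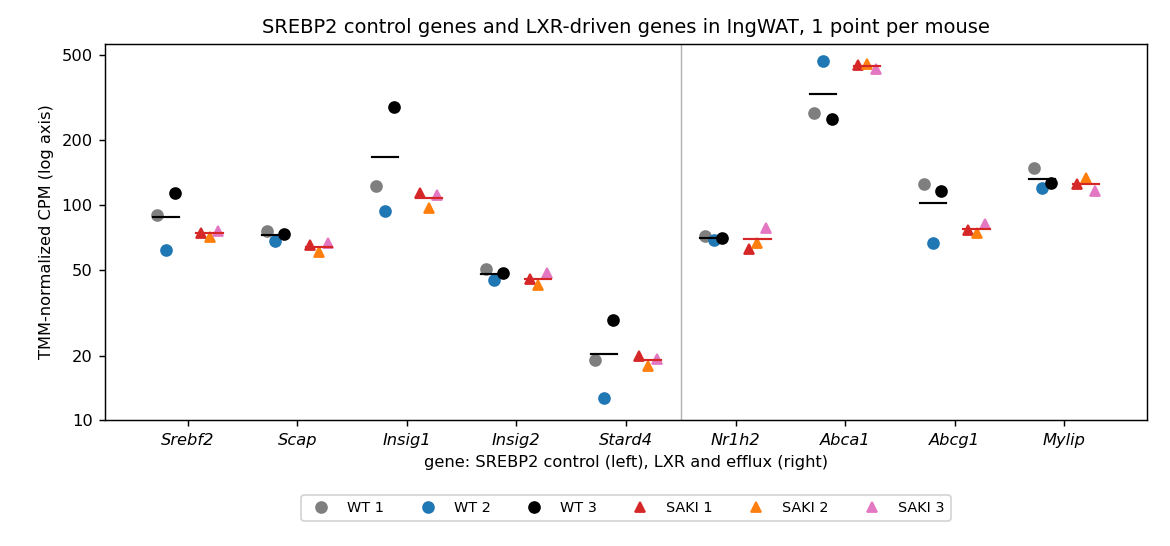
TMM-scaled CPM on a log axis, 1 point per mouse, for the SREBP2 control genes (left of the line) and the LXR genes (right), with short lines at the group means. WT 3 stands at 287 CPM in Insig1, and WT 2 stands with the SAKI mice in Abca1 and Abcg1. Levels are compared within a gene, since CPM is not corrected for length.

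The 4 LXR genes had estimates of both signs and 0 of them passed the test with all 6 mice. Abca1, which loads cholesterol onto lipid-poor apolipoprotein, was measured at 269, 469 and 251 CPM in WT mice and 446, 454 and 430 CPM in SAKI mice (log2 fold change 0.43, SE 0.24, edgeR adjusted p = 0.379). Abcg1, which exports cholesterol to mature particles, was measured at 125, 66.8 and 116 CPM in WT mice and 76.6, 74.2 and 81.8 CPM in SAKI mice (log2 fold change -0.40, SE 0.23, edgeR adjusted p = 0.374). WT 2 was the highest of all 6 mice in Abca1 and the lowest in Abcg1, while WT 1 and WT 3 lay on the far side of the SAKI mice in both. The ratio of Abca1 to Abcg1 CPM, not corrected for length, was 2.15 and 2.16 in WT 1 and WT 3, 7.03 in WT 2 and 5.25 to 6.12 in SAKI mice. Without WT 2, Abca1 rose by 0.77 on the log2 scale (SE 0.10, edgeR adjusted p = 0.00762) and Abcg1 fell by 0.63 (edgeR adjusted p = 0.0118). Without WT 3 the log2 fold changes were 0.26 for Abca1 and -0.31 for Abcg1, and neither passed the test, in a fit that called 4 of all genes. Mylip, an LXR target that marks lipoprotein receptors for breakdown, was at 149, 120 and 126 CPM in WT mice and 126, 133 and 116 CPM in SAKI mice (log2 fold change -0.08, edgeR adjusted p = 0.763). Nr1h2, the gene of LXR beta, was level, at 71.6, 68.5 and 70.1 CPM against 62.3, 66.9 and 78.6 CPM (log2 fold change -0.02, edgeR adjusted p = 0.948). The median of the 4 genes was -0.05, and -0.08 without WT 2.

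Markers of other cells differed between the same mice. The summed CPM of 11 macrophage markers was 1311, 2437 and 1063 in WT mice and 2466 to 2971 in SAKI mice, with WT 2 the WT mouse nearest to SAKI. That of 11 fibroblast and progenitor markers was 4574, 10018 and 3324 CPM in WT mice and 9087 to 10275 CPM in SAKI mice. The 15 adipocyte markers summed to 21826 to 32297 CPM in WT mice and 21279 to 24143 CPM in SAKI mice, and 13 of them had log2 fold changes below 0. Here WT 2 was not beside the SAKI mice but the highest of the 6, at 32297 CPM. Epithelial markers, of which 3 of 10 were tested, summed to 21.4 CPM in WT 3 and 3.57 to 8.77 CPM in the other 5 mice, and sebaceous gland markers, of which 6 of 8 were tested, to 113 CPM in WT 3 and 72.4 to 87.7 CPM in the others. These 2 lists were highest in WT 3, the mouse highest in most synthesis enzymes, and so was the endothelial list, at 1513 CPM. Whether this bears on the enzyme values was not tested. Summed CPM in WT and SAKI mice spanned 1407 to 1513 and 1228 to 1310 for endothelium, 1168 to 1388 and 848 to 1044 for smooth muscle, and 470 to 848 and 733 to 889 for B cells. For T cells the ranges were 175 to 275 and 348 to 430 CPM, for Schwann cells 290 to 475 and 474 to 595 CPM, and for skeletal muscle 545 to 5975 and 415 to 2896 CPM. In the B cell and T cell lists WT 2 was the lowest of the 6 mice, at 470 and 175 CPM. Of the marker genes found, 0 were at 0 in all 6 libraries and 0 passed the adjusted p. The part of cell makeup in the sterol gene values was not tested beyond a fit with the adipocyte marker score as a covariate, which called 0 members and gave a median of -0.56 for the synthesis enzymes.

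Levels per unit of length were compared between the members. The authors' FPKM, averaged over the 6 mice, was highest for Mylip (42.0), Insig1 (39.5) and Abca1 (36.5), followed by Hmgcs1 (28.3) and Abcg1 (21.5). The SD over mice was 4.88 FPKM for Mylip and 19.9 FPKM for Insig1, so the order of these genes was not separated by their spread. The lowest were Msmo1 (1.65), Sqle (1.52), Lss (1.37) and Tm7sf2 (0.941 FPKM). The length behind the FPKM was longer than the annotated exons for most members. With CPM per kilobase of exon in its place, Insig1 was first, Mylip second, Abca1 next and Tm7sf2 last.

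**Figure D4:**
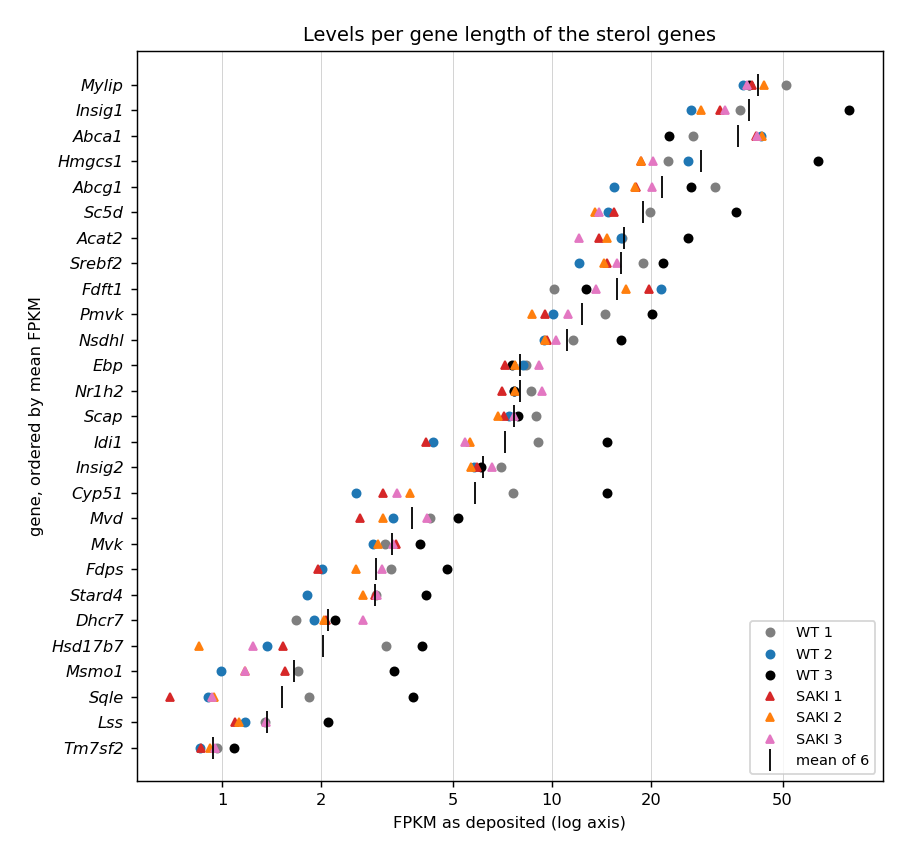
Deposited FPKM on a log axis for the 27 genes, ordered by the mean of the 6 mice (vertical tick), 1 point per mouse. The order runs from Mylip at 42.0 to Tm7sf2 at 0.941 FPKM, and the black points of WT 3 lie far to the right in Hmgcs1, Idi1, Cyp51 and Sqle.

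A further 37 genes of sterol handling outside the list were read in the same fit, and 36 of them were tested. None passed the adjusted p. The unadjusted p was under 0.05 for 3 of the 36 with a lower and 1 with a higher value in SAKI mice, beside 9.99% and 8.36% of all genes. Their log2 fold changes were below 0 in 16 and above 0 in 20, with a median of 0.06, beside 16 below 0 and a median of -0.50 for the 18 synthesis enzymes. Among genes that supply or branch from the pathway, Ggps1, which makes geranylgeranyl diphosphate, had a log2 fold change of 0.18 and Acly, which makes cytosolic acetyl-CoA, one of 0.40 (edgeR adjusted p = 0.417 and 0.533). In SREBP processing, Mbtps2, a protease that frees SREBPs in the Golgi, had a log2 fold change of 0.29 (edgeR adjusted p = 0.314).

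Nr1h3, the gene of LXR alpha, was at 76.0, 80.5 and 75.5 CPM in WT mice and 58.0, 50.1 and 59.3 CPM in SAKI mice, with no overlap and with WT 2 on the side of its own group (log2 fold change -0.47, SE 0.10, edgeR adjusted p = 0.163). It was the 1 gene of these 36 that DESeq2 called (adjusted p = 0.0156), in a test that called 2.94% of genes lower and 2.18% higher. Of the 36, 5 were lower and 4 higher without overlap, beside 12.4% and 13.0% of all genes. Pltp, an LXR target that transfers phospholipids, had a log2 fold change of -0.30 (edgeR adjusted p = 0.270). Of the uptake and transport genes, Osbp, a sterol exchanger at the Golgi, had -0.27 and Nceh1, a cholesteryl ester hydrolase, 0.30 (edgeR adjusted p = 0.281 and 0.282). Cyp27a1, an enzyme that makes oxysterols, was at 30.2, 53.2 and 25.1 CPM in WT mice and 68.4, 63.1 and 55.1 CPM in SAKI mice (log2 fold change 0.78, SE 0.27, edgeR adjusted p = 0.226). All 3 SAKI mice were above all 3 WT mice, WT 2 the nearest. Cyp7b1, which breaks oxysterols down, was at 5.34, 1.102 and 2.55 CPM in WT mice and 1.60 to 1.69 CPM in SAKI mice (log2 fold change -0.87, edgeR adjusted p = 0.410). Without WT 2, 4 of the 36 fell and 2 rose, beside 9.14% and 7.41% of all genes. Nr1h3, Scarb1 and Osbp were among those that fell and Smpdl3a and Cyp27a1 rose, the last by 1.17 on the log2 scale (edgeR adjusted p = 0.00694).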

How the data were processed

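RNA-seq of IngWAT from 3 WT and 3 SAKI mice was read from the deposited files. The authors deposited counts per gene for each library, raw and not normalized, and 1 table of FPKM for all 6. In 100% of 11738 genes the FPKM equals the count divided by a gene length and the library total, within 1%. GRCm38 is the build in the submitters' processing notes, which also list StringTie 1.3.0, HISAT2 2.0.4 and Bowtie2 2.2.6. The sources used here do not say how reads were counted, with which strand setting, or what became of reads with several matches, and counts of overlapping genes may be mixed. Of 34745 genes, 12227 had no count. Of these gene identifiers, 34267 are in GENCODE vM21. The deposited coordinates of some members, such as Hmgcs1, Fdft1 and Sc5d, differ from those of vM21. Overlaps between genes were taken from vM21 exons. Fdft1 was not the only member concerned. Of Cyp51 exon bases, 3.8% overlap a gene on the other strand with a mean of 1316.0 counts, against 506.8 for Cyp51. Of Tm7sf2 exon bases, 12.1% overlap a gene on the same strand with a mean of 444.5 counts, against 108.8 for Tm7sf2. The other overlaps of members were with genes of at most 12.8 mean counts or absent from the count files. A spreadsheet had turned 27 gene names into dates, and these were restored by identifier.

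Genes were filtered with filterByExpr (at least 10 counts, total 15), scaled by TMM and tested with edgeR 4.0.16 in R 4.3.3 (quasi-likelihood, genotype alone, two-sided, Benjamini-Hochberg over 15400 genes, threshold 0.05). The common biological coefficient of variation was 23.3%. The SE of a log2 fold change is its size over the square root of F. The fitting code was tested on simulated data. Alternatives were limma-voom (limma 3.58.1), DESeq2 1.42.0, upper-quartile and RLE scaling, no count filter, a mean of at least 5 CPM, log2(FPKM + 1) and log2(FPKM + 0.1) in limma (FPKM of at least 1 in 3 libraries) or with no filter, the replicate number as a block, the adipocyte marker score (mean log2 CPM) as a covariate, and each library left out in turn. Libraries were named by the labels' numbers, and the labels do not say that the 3 samples of a group are anything other than separate mice.

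The members and all lists were chosen with earlier results of these data known. The text names all 27 members, Slc35d3 and the 2 genes of smallest p in each of 5 companion lists (37 of 37 symbols found), apart from 1 that is not reported here. Scarb1 and Smpdl3a were named after their values were seen, as were Ctsb, which overlaps Fdft1, and Acat3, a near copy of Acat2. Markers (113 symbols, 112 genes) cover adipocytes, macrophages, fibroblasts, endothelium, smooth muscle, B cells, T cells, Schwann cells, epithelium, sebaceous gland and skeletal muscle. Promoters came from RefSeq (GRCm38.p6) and coordinates from the count files. Some genes of the pathway are not analysed here.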

Additional observations from a re-analysis of the deposited data

How the results depend on the processing

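The lowest counts of any member in a library were 72, in Mvd and Hsd17b7, where counting error is largest. The number of genes called over the whole table, 5 in the reported test, was 728 with DESeq2, 8 with no count filter, 9 with log2(FPKM + 1), 9 with log2(FPKM + 0.1) and 2 with the adipocyte score. With 1 library left out it ranged from 1 (without SAKI 3) to 2598 (without WT 2), and was 2 without SAKI 1 and 2 without SAKI 2. Among the synthesis enzymes the count of 0 became 1 with DESeq2 (Hsd17b7) and 0 to 5 with 1 library left out, the 5 without WT 2. Among the LXR genes it became 0 to 2 and among the 36 companion genes 0 to 6, again highest without WT 2, and DESeq2 called 1 companion. Members without overlap went from 3 to between 3 and 18 with 1 library left out (18 without WT 2, 7, 6 and 8 without SAKI 1, SAKI 2 and SAKI 3).

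The median log2 fold change of the synthesis enzymes stayed below 0 in every alternative run, from -0.68 without WT 2 to -0.15 without WT 3. That of the LXR genes, -0.05, became -0.14 with the adipocyte score and ranged from -0.082 (without WT 2) to 0.010 (without WT 1). That of the companion genes, 0.06, became 0.10 under upper-quartile scaling (0.096), the 5 CPM filter (0.099), log2(FPKM + 1) (0.098) and log2(FPKM + 0.1) (0.101), and ranged from 0.033 (without SAKI 3) to 0.103 (without WT 2). The causes of these shifts were not tested. No scaling moved the median of all genes by 0.1 or more.

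Of 455 values of single members under alternatives, 431 kept direction and side of the threshold, 8 passed it (7 members) and 16 changed sign (7 members). All sign changes were in members near 0. With 1 library left out, log2 fold changes ran from -0.158 to 0.102 for Mvk (above 0 without WT 3), from -0.090 to 0.536 for Fdft1 (below 0 without WT 1 and, at -0.032, without SAKI 1), from -0.179 to 0.008 for Tm7sf2 (above 0 without WT 3) and from -0.106 to 0.016 for Ebp (above 0 without SAKI 1 and, at 0.012, without WT 2). They ran from -0.337 to 0.271 for Stard4 (above 0 without WT 3), from -0.116 to 0.038 for Nr1h2 (above 0 without SAKI 1) and from -0.145 to 0.022 for Mylip (above 0 without WT 1). Upper-quartile scaling gave 0.017 for Ebp and 0.023 for Nr1h2, and the 5 CPM filter 0.005 for Ebp and 0.010 for Nr1h2. Stard4 was at 0.013 with log2(FPKM + 0.1), and Nr1h2 at 0.000 with log2(FPKM + 1), filtered or not. The FPKM filter dropped Sqle and Tm7sf2.

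With the replicate number as a block, 1 gene was called in place of 5, 0 of the 27 members were called, and the median of the synthesis enzymes was -0.44. The labels give the pairing no meaning: deviations of same-numbered WT and SAKI libraries correlated at r = 0.014, 0.023 and 0.099 across genes, and no library correlated best with its own number.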
